A study of Mus musculus with 7 samples.

Results

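Transcripts of 10 genes of the epidermal growth factor (EGF) and fibroblast growth factor (FGF) pathways were followed in mouse neural stem cells (NSCs), which are brain precursors that can be expanded in a dish. The genes are 5 receptors, *Egfr*, *Erbb2*, *Fgfr1*, *Fgfr2* and *Fgfr3*, and 5 feedback genes that signalling through these receptors is known to switch on, *Spry1*, *Spry2*, *Spry4*, *Dusp6* and *Etv5*. They were picked by symbol, because the medium held EGF and basic FGF (bFGF), by a rule that uses no measured value. Each symbol matched 1 of the 55335 gene identifiers in the count files, and all 10 genes passed the filter on low counts that kept 13305 genes.

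All cells were FVB/N mouse NSCs. The wild-type (WT) group had 4 samples and the *Smchd1*-null group had 3 samples with the MommeD1 allele of *Smchd1*, whose protein represses chromatin. Both groups were grown in the same NeuroCult medium with recombinant human EGF and bFGF, so no sample was without the ligands of these receptors. The labels do not say whether samples of a group came from separate animals, and p-values therefore measure the spread between these samples, which may be technical. PolyA RNA was read as unamplified cDNA on nanopore flow cells in 2 batches, with the DCS108 kit in batch 1 and the DCS109 kit in batch 2. WT replicate 2 and *Smchd1*-null replicates 1 and 2 were in batch 1, WT replicates 3 and 4 and *Smchd1*-null replicate 3 were in batch 2, and WT replicate 1 was in both.

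EGF binds the receptor encoded by *Egfr*, which pairs with itself or with ERBB2, a relative that has no known ligand of its own. bFGF binds FGF receptors together with heparan sulphate. Both kinds of receptor feed the RAS-ERK cascade, which raises transcription of its own inhibitors and of ETS family transcription factors, so that the levels of the feedback genes are widely used as a readout of the pathway. EGF and bFGF are the usual mitogens of NSC culture.

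The samples held between 2.74 and 7.74 M (mega) counts, at which 3 counts correspond to between 0.399 and 1.13 counts per M (CPM). *Smchd1* averaged 63.4 ± 9.09 CPM over the 4 WT samples and 16.1 ± 2.97 CPM (SD) over the 3 *Smchd1*-null samples, with no overlap. The 8 NSC markers, *Fabp7*, *Vim*, *Sox2* and *Nes* among them, summed to between 8360 and 13400 CPM per sample, and the microglia, endothelial and fibroblast lists each summed to at most 4.12 CPM in any sample. WT replicate 4 stood apart from the rest. Its 6 oligodendrocyte lineage markers summed to 486 CPM, compared with 48.8 to 123 CPM in the other WT samples and 57.5 to 85.1 CPM in *Smchd1*-null, while *Mog*, a marker of mature oligodendrocytes, was at or under 1.13 CPM throughout. The 6 astrocyte markers summed to 313 CPM in WT replicate 4, compared with 135 to 189 CPM in the other WT samples and 112 to 190 CPM in *Smchd1*-null. The 6 neuron markers summed to 65.2 CPM there and to at most 30.0 CPM elsewhere, but this list was split. Only 3 of its genes were highest in WT replicate 4, *Dcx* (36.2 CPM), *Tubb3* (15.1 CPM) and *Snap25* (7.37 CPM). *Rbfox3*, *Stmn2* and *Syp*, at 2.74, 0.514 and 3.26 CPM there, were each higher in another WT sample. Results that rest on this library are therefore given with and without it, and in bulk samples fewer cells of a type and less RNA per cell cannot be told apart.

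Between genotypes, *Fgfr3* fell in *Smchd1*-null cells at a loose threshold, and no other member was called. None of the 10 genes passed an adjusted p of 0.05 by limma, which 0.0902% of all tested genes did. At the looser cut-off of 0.25, which 1.08% of tested genes passed, 1 member was called. This was *Fgfr3*, which fell by 0.51 on the log2 scale, from 101 to 69.8 CPM on average. At an unadjusted p of 0.05, which 13.9% of tested genes passed, there were 3 members, the receptors *Fgfr3*, *Erbb2* and *Egfr*, all with lower levels in *Smchd1*-null, and 0 feedback genes. With edgeR, 0 members passed an adjusted p of 0.25, which 0.0601% of tested genes did, and 2 had an unadjusted p under 0.05, compared with 5.07% of tested genes. With DESeq2 the counts were also 0 and 2, and the shares of tested genes were 0.241% and 4.46%. The median log2 fold change was -0.35 over the 5 receptors and -0.03 over the 5 feedback genes, with 0.005 over all tested genes. The median absolute log2 fold change of the 10 genes was 0.19, and that of all tested genes was 0.20.

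**Figure D1:**
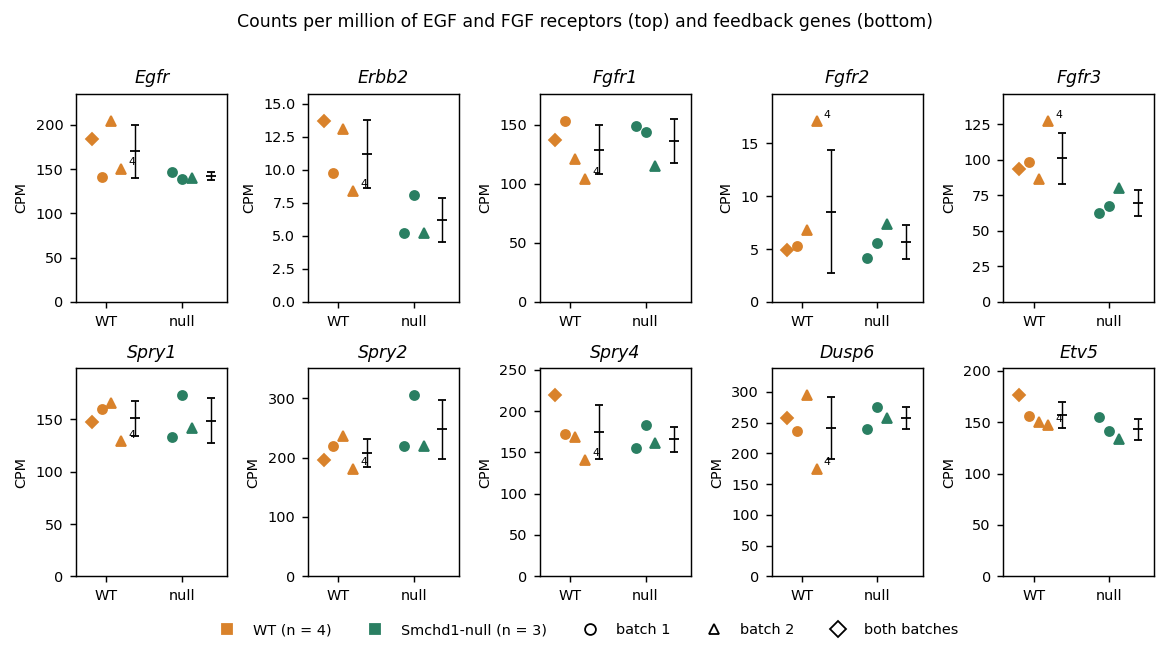
CPM (y axis, linear from 0) of the 10 genes in each of the 7 samples, with WT in orange, *Smchd1*-null in green and the batch given by the symbol. Black bars are the mean ± SD of each group, and the small 4 marks WT replicate 4. *Fgfr3* and *Erbb2* do not overlap between genotypes, *Fgfr2* is set apart by WT replicate 4 at 17.1 CPM, and the feedback genes overlap.

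*Fgfr3* (ENSMUSG00000054252.18, GRCm38 chromosome 5, 33721674 to 33737068, plus strand) encodes an FGF receptor that is found on neural precursors and astrocytes. It measured 93.3, 98.0, 86.3 and 127 CPM in WT replicates 1 to 4 and 62.3, 67.1 and 79.9 CPM in *Smchd1*-null replicates 1 to 3. Every *Smchd1*-null sample was below every WT sample. Groups that did not overlap were found for 5.53% of all tested genes, and for 2 of the 10 members. The means were 101 ± 17.8 CPM in WT and 69.8 ± 9.08 CPM in *Smchd1*-null (SD, n = 4 and n = 3), and the log2 fold change was -0.51 (SE 0.14, 95% confidence interval from -0.81 to -0.21, limma adjusted p = 0.233). The highest WT value was that of WT replicate 4, the library with raised astrocyte markers. Without it the fold change was -0.45 with an adjusted p of 0.367. Leaving out the highest WT value could not make the groups overlap. Since the groups did not overlap, the direction within each batch was fixed in advance, and only the size adds to it. *Fgfr3* was lower in *Smchd1*-null by 0.60 on the log2 scale in batch 1 (1 WT and 2 *Smchd1*-null samples). In batch 2 it was lower by 0.39 (2 WT samples and 1 *Smchd1*-null sample). The call at 0.25 was narrowly lost with batch share as a covariate (fold change -0.46, adjusted p = 0.2505). It was also lost with batch as a covariate and without WT replicate 1 (-0.47, adjusted p = 0.486), with edgeR (adjusted p = 0.858), with DESeq2 (adjusted p = 0.609), and after removal of the dependence of log-CPM on gene length within each sample (fold change -0.42, adjusted p = 0.389). The same held when any of 4 further samples was left out: the adjusted p was 0.595 without WT replicate 1, 0.423 without WT replicate 3, 0.996 without *Smchd1*-null replicate 1 and 1.0 without *Smchd1*-null replicate 2. The fold change stayed between -0.59 and -0.38 across all 23 alternative settings, with an unadjusted p under 0.05 in each.

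*Erbb2* (ENSMUSG00000062312.5, chromosome 11, 98412470 to 98437716, plus strand) encodes the ligandless partner of the EGF receptor. Its level was low, between 5.20 and 13.7 CPM. WT replicates 1 to 4 gave 13.7, 9.77, 13.1 and 8.40 CPM, and *Smchd1*-null replicates 1 to 3 gave 5.26, 8.12 and 5.20 CPM. The groups did not overlap, although WT replicate 4 and *Smchd1*-null replicate 2 nearly met. The log2 fold change was the largest in size among the 10 genes, at -0.78 (SE 0.26, 95% confidence interval from -1.35 to -0.22), but the adjusted p was 0.288. Without WT replicate 4 it was -0.88 (adjusted p = 0.384). The sign within each batch was fixed by the lack of overlap, and the differences were -0.55 in batch 1 and -0.96 in batch 2. Across 23 alternative settings the fold change ranged from -1.13 to -0.69. The unadjusted p was under 0.05 in all 23 and the adjusted p under 0.25 in 3. Those 3 were at least 10 counts in every sample, without WT replicate 2, and without *Smchd1*-null replicate 3. In them, 346 of 11313, 2924 of 12891 and 3153 of 13395 tested genes passed 0.25.

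*Egfr* (ENSMUSG00000020122.16, chromosome 11, 16752203 to 16918158, plus strand) encodes the receptor for the EGF in the medium. It measured 184, 141, 204 and 150 CPM in WT replicates 1 to 4 and 147, 139 and 140 CPM in *Smchd1*-null replicates 1 to 3. The *Smchd1*-null samples were close to each other and to WT replicates 2 and 4, and the groups overlapped. The log2 fold change was -0.31 (SE 0.13, 95% confidence interval from -0.60 to -0.03, limma adjusted p = 0.328). Within batch 1 the difference was 0.02, and within batch 2 it was -0.33. *Egfr* has the longest exonic length of the 10 genes, 11326 bases, and its fold change was -0.15 (adjusted p = 0.669) after the length trend was removed.

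Promoter windows from RefSeq (GRCm38.p6, 250 bases before to 50 after a start site) were found for 8 of the 10 genes and are shown for the 3 receptors with an unadjusted p under 0.05 and for the feedback gene that holds an ETS core. Capitals mark the ETS core CCGGAA, the letters that ETS factors such as ETV5 read, and the GC box GGGCGGG, the letters that SP1 family factors read, each on either strand. No motif searched here overlapped another in the windows shown. *Fgfr3* has a further listed start site, whose window is not shown.
*Fgfr3*, chr5:33721474-33721773, plus strand: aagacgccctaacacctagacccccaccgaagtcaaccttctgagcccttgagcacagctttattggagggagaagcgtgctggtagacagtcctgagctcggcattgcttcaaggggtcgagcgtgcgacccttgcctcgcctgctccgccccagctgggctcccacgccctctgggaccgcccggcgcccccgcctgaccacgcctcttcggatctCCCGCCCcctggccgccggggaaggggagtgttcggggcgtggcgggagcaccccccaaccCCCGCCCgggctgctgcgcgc
*Erbb2*, chr11:98412234-98412533, plus strand: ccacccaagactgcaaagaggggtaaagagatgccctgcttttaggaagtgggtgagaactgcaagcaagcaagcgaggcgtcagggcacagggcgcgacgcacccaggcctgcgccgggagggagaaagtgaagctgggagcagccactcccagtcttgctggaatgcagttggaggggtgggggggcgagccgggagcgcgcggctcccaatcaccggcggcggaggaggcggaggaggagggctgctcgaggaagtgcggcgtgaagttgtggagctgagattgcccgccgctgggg
*Egfr*, chr11:16751953-16752252, plus strand: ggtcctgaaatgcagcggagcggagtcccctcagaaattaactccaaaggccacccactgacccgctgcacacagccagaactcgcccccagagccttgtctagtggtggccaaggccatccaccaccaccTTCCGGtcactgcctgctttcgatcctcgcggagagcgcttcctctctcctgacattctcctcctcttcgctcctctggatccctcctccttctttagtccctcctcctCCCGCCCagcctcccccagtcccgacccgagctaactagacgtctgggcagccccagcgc
*Spry2*, chr14:105896770-105897069, minus strand: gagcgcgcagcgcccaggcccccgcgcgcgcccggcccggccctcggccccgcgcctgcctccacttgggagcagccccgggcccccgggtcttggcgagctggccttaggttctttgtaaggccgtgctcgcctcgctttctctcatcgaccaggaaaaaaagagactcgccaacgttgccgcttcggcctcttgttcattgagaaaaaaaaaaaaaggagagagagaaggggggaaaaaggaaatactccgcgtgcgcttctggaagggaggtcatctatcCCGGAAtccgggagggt

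Of the 8 genes, *Egfr* and *Spry2* had 1 ETS core each, which began 119 bases before the start site in *Egfr* and at base 33 after it in *Spry2*. The ETS core was present in 14.9% of 32851 promoter windows of this length. The GC box, present in 25.6% of them, was found in *Egfr*, *Spry1* and both *Fgfr3* windows. The AP-1 site TGANTCA and the CRE TGACGTCA, the letters read by FOS-JUN and by CREB and held by 7.81% and 1.79% of windows, were in none of the windows of the 8 genes. *Fgfr3* and *Erbb2*, the 2 members without overlap between genotypes, shared none of the 4 motifs.

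*Fgfr1* (ENSMUSG00000031565.18, chromosome 8, 25513654 to 25575718, plus strand) encodes the FGF receptor with the most counts in 6 of the 7 samples. It measured 137, 153, 121 and 104 CPM in WT replicates 1 to 4 and 149, 144 and 115 CPM in *Smchd1*-null replicates 1 to 3. The groups overlapped, and the log2 fold change was 0.13 (SE 0.13, 95% confidence interval from -0.15 to 0.42, adjusted p = 0.654). The values sorted by batch within each genotype, with the batch 2 samples at 104 to 121 CPM and the batch 1 samples at 144 to 153 CPM. With batch share as a covariate the genotype difference was -0.05, so its sign depended on the fit.

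*Fgfr2* (ENSMUSG00000030849.18, chromosome 7, 130162451 to 133123350, minus strand) encodes a further FGF receptor, which is found on glia. It had between 11 and 100 counts per sample. WT replicates 1 to 4 gave 4.88, 5.33, 6.82 and 17.1 CPM, and *Smchd1*-null replicates 1 to 3 gave 4.13, 5.59 and 7.36 CPM. WT replicate 4 alone was high, at 3.02 times the mean of the other WT samples, and this is the library with raised oligodendrocyte lineage markers. The log2 fold change was -0.35 (SE 0.35, 95% confidence interval from -1.10 to 0.39, adjusted p = 0.644), and without WT replicate 4 it was -0.10. The annotated gene includes a long readthrough model that shares 314 exonic bases with *Ctbp2* on the same strand, so the 2 genes' counts are uncertain there. In comparison, *Fgfr3* was 1.37 times as high in WT replicate 4 as in the other WT samples, and the other 8 members were at 0.664 to 0.917 times.

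**Figure D2:**
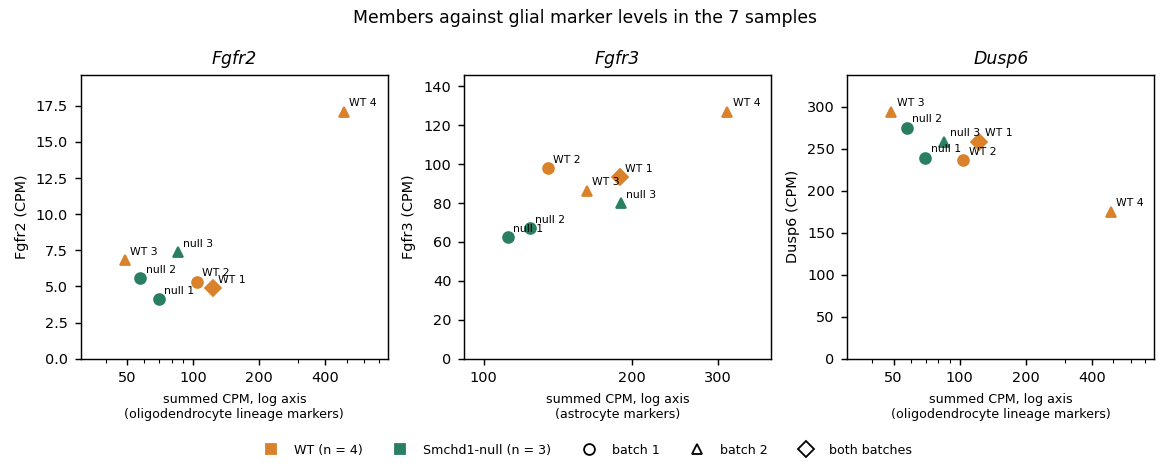
CPM of *Fgfr2*, *Fgfr3* and *Dusp6* (y axes, linear from 0) against the summed CPM of oligodendrocyte lineage or astrocyte markers (x axes, log scale), with 1 point per sample. WT replicate 4 lies at the right of each panel, with 486 CPM of oligodendrocyte lineage markers and 313 CPM of astrocyte markers, the highest *Fgfr2* (17.1 CPM) and *Fgfr3* (127 CPM) and the lowest *Dusp6* (175 CPM).

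The part of the glial markers in the levels of *Fgfr2* and *Fgfr3* was not tested. As shares of all *Fgfr1*, *Fgfr2* and *Fgfr3* counts, a measure that does not depend on library size, *Fgfr3* took 39.6%, 38.3%, 40.3% and 51.2% in WT replicates 1 to 4 and 28.9%, 30.9% and 39.5% in *Smchd1*-null replicates 1 to 3. The Wilson 95% intervals, which cover counting error only, were 36.5% to 42.7% for *Smchd1*-null replicate 3 and 35.5% to 41.1% for WT replicate 2. On this scale the groups thus overlapped, and *Smchd1*-null replicate 3 stood with the WT samples. The ratio of *Fgfr1* to *Fgfr3* counts averaged 1.31 ± 0.335 (SD) over the 4 WT samples and 1.99 ± 0.499 over the 3 *Smchd1*-null samples, with values of 0.819 in WT replicate 4 and 1.44 in *Smchd1*-null replicate 3. The summed level of the 3 FGF receptors was 214 to 256 CPM in WT and 202 to 217 CPM in *Smchd1*-null.

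**Figure D3:**
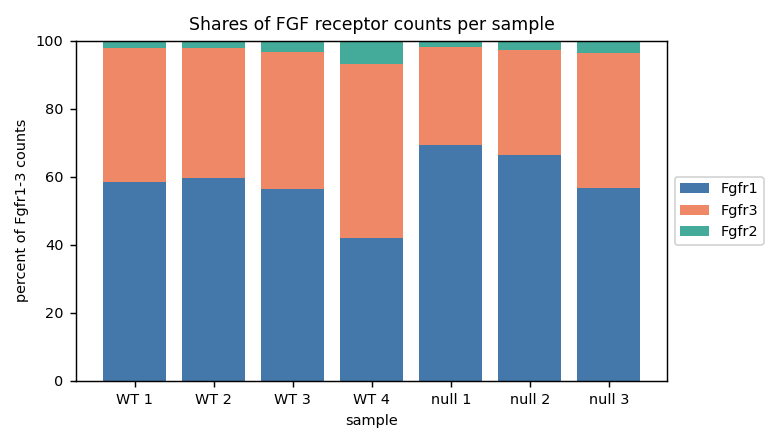
Percent of the summed counts of *Fgfr1*, *Fgfr2* and *Fgfr3* that each gene took, stacked to 100 in each of the 7 samples. *Fgfr3* (middle segment) takes 51.2% in WT replicate 4 and 28.9% and 30.9% in *Smchd1*-null replicates 1 and 2.

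None of the 5 feedback genes passed the test, and their groups overlapped in all 5 cases. *Spry1*, *Spry2* and *Spry4* encode Sprouty proteins, which restrain receptor tyrosine kinase signalling. *Spry2* (ENSMUSG00000022114.5, chromosome 14, 105891947 to 105896819, minus strand) measured 196, 219, 236 and 181 CPM in WT replicates 1 to 4 and 219, 305 and 219 CPM in *Smchd1*-null replicates 1 to 3. *Smchd1*-null replicate 2 alone exceeded the WT range. Its log2 fold change was 0.25 (SE 0.15, 95% confidence interval from -0.07 to 0.57, adjusted p = 0.449), and it was 0.04 without *Smchd1*-null replicate 2.

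*Spry1* (ENSMUSG00000037211.12, chromosome 3, 37639947 to 37644598, plus strand) measured 148, 160, 166 and 129 CPM in WT replicates 1 to 4 and 133, 173 and 142 CPM in *Smchd1*-null replicates 1 to 3. *Spry4* (ENSMUSG00000024427.7) measured 219, 172, 169 and 141 CPM in WT and 155, 183 and 161 CPM in *Smchd1*-null, in the same order of replicates. In both genes the *Smchd1*-null samples lay inside or just above the WT range. The log2 fold changes were -0.03 for *Spry1* (95% confidence interval from -0.32 to 0.26) and -0.10 for *Spry4* (95% confidence interval from -0.39 to 0.20).

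*Dusp6* (ENSMUSG00000019960.8, chromosome 10, 99263231 to 99267489, plus strand) encodes a phosphatase that inactivates ERK. It measured 258, 236, 294 and 175 CPM in WT replicates 1 to 4 and 239, 275 and 258 CPM in *Smchd1*-null replicates 1 to 3. The *Smchd1*-null samples lay within the WT range, and WT replicate 4 was the lowest of the 7. For *Dusp6* the log2 fold change was 0.02 (SE 0.14, 95% confidence interval from -0.28 to 0.32, adjusted p = 0.957), and -0.06 without WT replicate 4. *Etv5* (ENSMUSG00000013089.15, chromosome 16, 22381309 to 22439719, minus strand) encodes an ETS transcription factor. It measured 176, 156, 150 and 147 CPM in WT replicates 1 to 4 and 155, 141 and 134 CPM in *Smchd1*-null replicates 1 to 3. Here *Smchd1*-null replicates 2 and 3 were below the WT range. Its log2 fold change was -0.12 (95% confidence interval from -0.37 to 0.13, adjusted p = 0.639). The intervals of the 5 feedback genes together ran from -0.39 to 0.57.

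**Figure D4:**
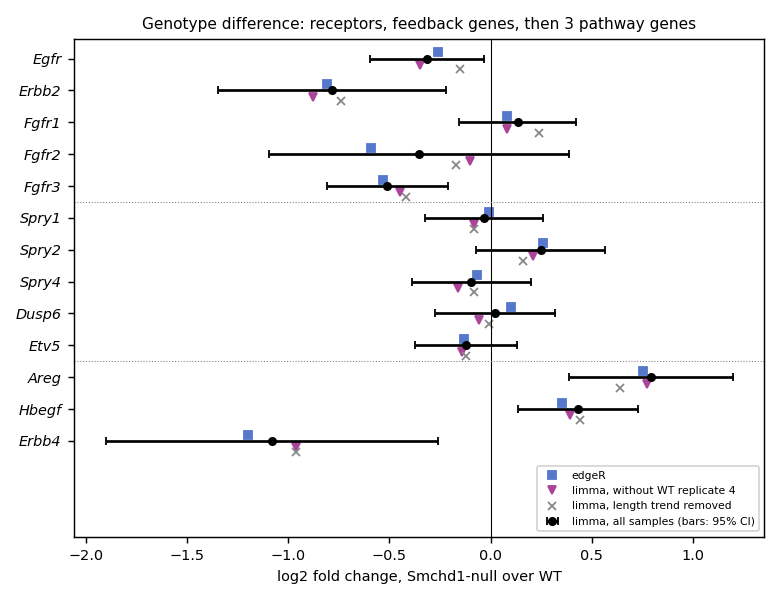
Log2 fold change, *Smchd1*-null over WT (x axis), of the 5 receptors, the 5 feedback genes and 3 further pathway genes, with bars for the 95% confidence interval of the limma fit on all samples. Squares are edgeR, triangles are limma without WT replicate 4, and crosses are limma after removal of the length trend. Intervals of *Egfr*, *Erbb2* and *Fgfr3* lie below 0 and those of the feedback genes include 0.

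The other genes of the pathway were taken from 6 lists, of which 55 genes passed the filter. Of these, 1 rose at an adjusted p of 0.25 and 0 fell. With edgeR and DESeq2, 0 of the 55 passed. At an unadjusted p under 0.05 there were 12 by limma, 7 by edgeR and 6 by DESeq2, where the shares of all tested genes were 13.9%, 5.07% and 4.46%. The median log2 fold change of the 55 was -0.11. The gene that rose was *Areg*, which encodes amphiregulin, an EGF receptor ligand made by the cells themselves. It measured 12.7, 18.2, 15.2 and 14.1 CPM in WT replicates 1 to 4 and 22.1, 27.9 and 25.3 CPM in *Smchd1*-null replicates 1 to 3. No *Smchd1*-null sample was as low as the highest WT sample. The log2 fold change was 0.79 (SE 0.19, 95% confidence interval from 0.39 to 1.20, adjusted p = 0.191). The call was lost with batch share as a covariate (0.66, adjusted p = 0.2505), and with that covariate and without WT replicate 1 (0.60, adjusted p = 0.586). The adjusted p was 0.659 with edgeR, 0.411 with DESeq2, 0.306 after removal of the length trend and 0.328 without WT replicate 4. It was 0.595 and 0.441 without WT replicates 1 and 3, and 0.996 and 1.0 without *Smchd1*-null replicates 1 and 2. The difference was 0.44 within batch 1 and 0.78 within batch 2, with a sign that the lack of overlap fixed in advance. The ratio of *Areg* to *Egfr* counts, a comparison of 2 genes within each library, averaged 0.0915 ± 0.0272 (SD) over the 4 WT samples and 0.178 ± 0.0251 over the 3 *Smchd1*-null samples.

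Among ligands, the 11 EGF family genes summed to 127 to 171 CPM in WT and 158 to 188 CPM in *Smchd1*-null. *Hbegf*, which encodes heparin-binding EGF-like growth factor, made up the larger portion, at 94.5 ± 17.0 CPM in WT and 121 ± 17.2 CPM in *Smchd1*-null (log2 fold change 0.43, adjusted p = 0.288). With batch share as a covariate the *Hbegf* difference was 0.20 (adjusted p = 0.666), within batches it was 0.13 and 0.24, and without *Smchd1*-null replicate 2 it was 0.28. *Egf* itself had at most 17 counts in any sample. The 18 FGF genes summed to 8.66 to 28.3 CPM, and 17 of them had under 10 counts in every sample, *Fgf2*, the gene of bFGF, among them with at most 4 counts. *Fgf1*, the FGF gene that was tested, measured 23.8 CPM in WT replicate 4, 7.60 to 11.2 CPM in the other WT samples and 4.98 to 7.45 CPM in *Smchd1*-null (log2 fold change -0.65, adjusted p = 0.375, and -0.44, adjusted p = 0.548, without WT replicate 4). FGF ligand transcripts were thus scarce, and the sum was highest in WT replicate 4.

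Of the other receptors, *Erbb3* and *Fgfr4* had under 10 counts in every sample. *Erbb4*, a neuregulin receptor, had a genotype difference of -1.08 on the log2 scale (SE 0.38, adjusted p = 0.297), and *Fgfrl1*, an FGF receptor without a kinase domain, had one of -0.33 (adjusted p = 0.399). In each of the remaining 3 lists, 0 genes passed at 0.25, and the genes with the smallest p are given as values. They were the heparan sulphate proteins *Sdc1* (0.49) and *Gpc6* (-0.51), of 11 tested with 2 at an unadjusted p under 0.05 by limma, to be read against the 13.9% of all tested genes. In the RAS-ERK cascade they were *Map2k2* (0.49) and *Mapk3* (0.40), the genes of MEK2 and ERK1, of 19 tested with 4 at an unadjusted p under 0.05. Among other inhibitors and targets they were *Etv1* (-0.38) and *Lrig1* (-1.37), an ETS factor and a receptor inhibitor, of 16 tested with 3 at an unadjusted p under 0.05. By edgeR and DESeq2 the counts at an unadjusted p under 0.05 were 0 and 0 for the heparan sulphate list, 0 and 0 for the cascade and 3 and 2 for the inhibitors and targets. With batch share as a covariate the differences of *Sdc1*, *Map2k2*, *Mapk3*, *Etv1* and *Lrig1* were 0.25, 0.17, 0.29, -0.33 and -0.83. That of *Erbb4* was -1.02. Those of *Gpc6* and *Fgfrl1* were larger in size than without it, at -0.72 and -0.53 (limma adjusted p = 0.292 and 0.267).

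The batches differed more widely than the genotypes. With genotype and batch share in 1 model, 12.4% of tested genes had an adjusted p under 0.05 for batch and 38.7% were under 0.25. For genotype in that same model, 19 of 13305 genes passed 0.05 and 74 passed 0.25. Of the 10 members, 1 passed 0.05 and 2 passed 0.25. *Fgfr1* was lower in batch 2, by a batch coefficient of -0.37 on the log2 scale (SE 0.10, adjusted p = 0.0276), and the difference was -0.44 among WT samples and -0.35 among *Smchd1*-null samples. *Fgfr2* was higher in batch 2, at 0.67 (SE 0.31, adjusted p = 0.164). Without WT replicate 4, a batch 2 sample, it was 0.47 (SE 0.30, adjusted p = 0.301), and the *Fgfr1* difference was -0.33 (adjusted p = 0.0450). The other 8 members had batch differences between -0.13 and 0.16 with adjusted p-values of at least 0.423. Library kit and sequencing batch cannot be told apart, and the share of reads of WT replicate 1 from each batch was set at 0.5. As only WT replicate 1 was in both batches, differences between the samples themselves cannot be told apart from batch either.

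**Figure D5:**
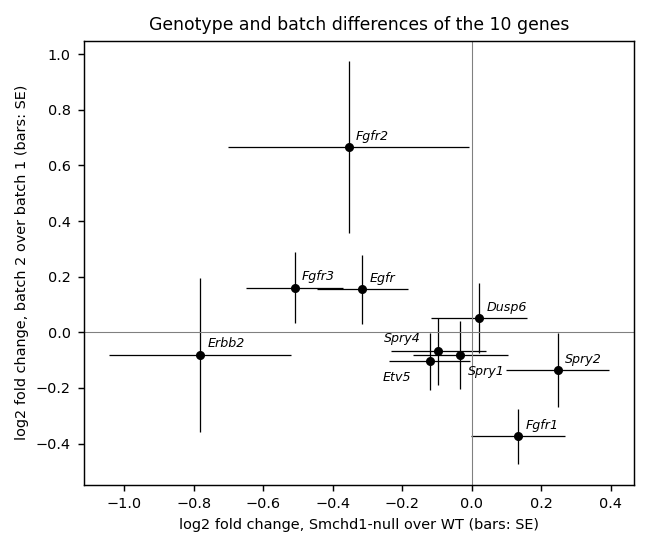
Log2 fold change between batches (y axis, batch 2 over batch 1, with genotype in the model) against that between genotypes (x axis, *Smchd1*-null over WT, genotype alone) for the 10 genes, with SE bars. *Fgfr1* lies lowest, at -0.37 for batch, while *Erbb2* and *Fgfr3* lie to the left, at -0.78 and -0.51 for genotype.

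Levels of different genes were compared per kilobase of the deposited exonic length, as mean CPM per kilobase over the 7 samples. On this scale the feedback genes filled the first 5 places and the receptors the last 5. *Spry2* was highest, at 108 ± 19.0 CPM per kilobase (SD, n = 7), followed by *Dusp6* at 79.1 ± 12.2 and *Spry1* at 51.7 ± 5.84. *Etv5* at 36.9 ± 3.24 and *Spry4* at 36.1 ± 5.24 did not differ beyond their spread (exact paired sign-flip permutation test, two-sided, adjusted p = 0.594 over 9 neighbour pairs, n = 7). *Egfr* at 13.9 ± 2.29, *Fgfr1* at 13.4 ± 1.90 and *Fgfr3* at 12.2 ± 3.01 formed a further set in which neighbours did not differ beyond their spread (adjusted p = 0.594 and 0.442, exact permutation). *Erbb2* at 1.74 ± 0.651 and *Fgfr2* at 0.709 ± 0.433 were lowest. Among all tested genes, *Spry2* stood at percentile 94.2 on this scale and *Fgfr2* at percentile 6.58. The remaining 6 neighbour pairs differed, with adjusted p-values of 0.0281 or 0.0468 and a smallest unadjusted p that 7 samples allow of 0.0156. A long read counts once whatever its length, so CPM was also compared without division by length. On that scale *Dusp6* came first at 248 ± 38.1 CPM. *Egfr* was at rank 4 with 158 ± 25.9 CPM, above *Etv5* at 151 ± 13.3 and *Spry1* at 150 ± 17.0. The feedback genes thus did not fill the first 5 places on CPM, and the place of *Egfr* below them depended on division by length. Per kilobase *Spry4* was above *Egfr* by 1.37 on the log2 scale in 7 of 7 samples (exact sign-flip permutation, adjusted p = 0.0281). On CPM it was above by 0.122 in 5 of 7 (adjusted p = 0.351). *Fgfr1*, at 132 CPM, was below all 5 feedback genes on CPM too. Of the 10 genes 4 kept their rank on CPM, and none of the 9 neighbour pairs had an adjusted p under 0.05. The floor of the test limits this result, since 1 pair alone at the smallest possible p cannot pass the adjustment over 9 pairs. On CPM *Fgfr3* was above *Erbb2* in 7 of 7 samples, by 3.33 on the log2 scale. That pair was at the floor (exact sign-flip permutation p = 0.0156, adjusted p = 0.0936). *Fgfr3*, *Erbb2* and *Fgfr2* were the last 3 in that order too. Per kilobase of the longest annotated transcript, 7 of the 10 genes kept their rank and the receptors were again the last 5, but their order changed. *Egfr*, at 15.5 ± 2.54, then stood below *Fgfr1* at 26.2 ± 3.73 and *Fgfr3* at 20.6 ± 5.08. On this scale *Fgfr3* was above *Egfr* in 7 of 7 samples (exact sign-flip permutation, adjusted p = 0.0234), and *Erbb2* and *Fgfr2* did not differ beyond their spread (adjusted p = 0.531). The order of *Egfr*, *Fgfr1* and *Fgfr3* therefore depended on the length used.

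Across the 7 samples the members were compared in pairs by the correlation of log-CPM. Of 45 pairs, 3 had an unadjusted exact permutation p under 0.05, where 1 in 20 would be 2.25, and 0 an adjusted one. The strongest was between *Fgfr1* and *Fgfr2*, with Pearson r = -0.88 (exact permutation p = 0.00417, adjusted p = 0.188, n = 7) and Spearman rho = -0.82 (exact permutation p = 0.0341, adjusted p = 0.496). Without the 2 samples farthest from the median of *Fgfr1*, WT replicate 4 and *Smchd1*-null replicate 3, r was -0.73. Both genes also moved with batch, in opposite directions, and each batch holds too few samples for a value of its own. *Spry1* correlated with *Spry2* (r = 0.77, rho = 0.68, exact permutation p = 0.0268 and 0.110, adjusted p = 0.545 and 0.548, n = 7), but r was 0.35 without the 2 farthest samples. Leaving out the samples farthest on *Spry1*, WT replicate 4 and *Smchd1*-null replicate 2, narrows its range. The lower r therefore does not show that the relation rests on them. Without WT replicate 4 alone r was 0.66, and after each genotype's mean was taken away it was 0.96. The third pair was *Spry1* with *Dusp6* (r = 0.73, rho = 0.71, exact permutation p = 0.0363 and 0.0881, adjusted p = 0.545 and 0.496, n = 7), with r = 0.52 without the same 2 samples. For *Egfr* and *Erbb2*, the pair of EGF receptor genes, which did not pass that level, r was 0.76 (rho = 0.71, exact permutation p = 0.0663 and 0.0881, adjusted p = 0.549 and 0.496). It was -0.01 without WT replicates 1 and 3, the samples farthest on *Egfr*, and here too the range is narrowed. Without WT replicate 4 alone it was 0.77, and after each genotype's mean was taken away it was 0.60.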

How the data were processed

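Polyadenylated RNA of 7 NSC samples was sequenced as nanopore direct cDNA. The deposited files hold whole-number counts per gene, not normalised, and gene lengths in bases, both made by the authors. According to the methods of the study, reads were aligned to mm10 with minimap2 2.17 and primary alignments were counted with featureCounts in long-read mode on Gencode M23, and reads of a sample from both batches were summed. Strand was not stated to be used in counting, so overlapping and antisense genes are uncertain. Symbols came from Gencode M21 (GRCm38), with identifier versions ignored: 55154 of 55335 identifiers matched.

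Genes were filtered by filterByExpr and scaled by TMM. Following the study, limma's voomWithQualityWeights was fitted with genotype alone on all 7 samples, two-sided, with Benjamini-Hochberg adjustment over 13305 genes and thresholds of 0.05 and 0.25. Adjusted p-values with no tool named are from this fit. CPM was taken over library size times the TMM factor, and a prior count of 2 was added for log-CPM. Total counts of 2.74 to 7.74 M per sample set the precision of low genes. Quality weights ran from 0.447 (WT replicate 4) to 2.03 (*Smchd1*-null replicate 1). Software was R 4.3.3, limma 3.58.1, edgeR 4.0.16 and DESeq2 1.42.0, and the fits were tested on simulated counts.

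The members and lists were chosen with earlier results of these data known. Named were the 10 members, *Smchd1*, other pathway genes with an adjusted p under 0.25 (otherwise the 2 with the smallest p in each list), and the 5 genes most like the summed feedback genes. *Mog* and other marker genes, and further ligands and receptors, were named after their values were seen. Of 137 listed genes 136 matched. Alternatives covered the test, weights, normalisation, filter, batch, replicate block, gene length, depth and each sample left out. Those without WT replicate 4 by edgeR, with the batch covariate and for the batch difference were chosen after seeing the data. The promoter of 1 member and the protein sequences are not used here.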

Additional observations from a re-analysis of the deposited data

Results flagged for a closer look

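In WT, 37 comparisons asked whether 1 of the 4 samples lay far from the other 3 (Dixon's test of the gap over the range). Of these, 3 did so, and chance gives about 1.85 at 1 in 20. Most quantities entered on both the CPM and the log2 scale, so the 37 comparisons are not independent. *Fgfr2* in WT replicate 4 was at 17.1 CPM, with the other WT samples at 4.88 to 6.82 CPM. The summed oligodendrocyte lineage markers in WT replicate 4 were at 486 CPM, with the others at 48.8 to 123 CPM. The summed endothelial markers in WT replicate 2, at -1.17 on the log2 CPM scale, were low beside 1.55 to 2.04 in the others, on a handful of counts. Samples of *Smchd1*-null, of which there are 3, were not compared in this way.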

How the results depend on the processing

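The count of members with an adjusted p under 0.05 was 0 in every setting run. The count under 0.25, which was 1, became 0 with edgeR, DESeq2, no sample weights, all genes with a count, the batch covariate (with all samples, without the sample in both batches, or without WT replicate 4), the replicate block, the length trend removed (alone, with the block or with batch) and edgeR without WT replicate 4. It became 2 with at least 10 counts in every sample, where 346 of 11313 tested genes passed. It ranged from 0 to 3 as each sample was left out, with 3 without WT replicate 2 or *Smchd1*-null replicate 3. In those 2 fits, 2924 of 12891 and 3153 of 13395 tested genes passed. Over all genes, calls under 0.25 fell from 144 to 8 with edgeR, 32 with DESeq2 and 10 with limma without sample quality weights. They ranged from 1 to 3153 as samples were left out. The cause was not tested. *Fgfr3*, *Erbb2*, *Egfr*, *Spry2*, *Etv5* and *Areg* kept their sign in all 23 settings.

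Signs turned for 5 members, none of them called. *Fgfr1* went to -0.05 with the batch covariate, -0.04 with the batch covariate and without the sample in both batches, -0.04 with the replicate block, -0.02 with length and batch, -0.01 with edgeR and -0.07 with the batch covariate, both without WT replicate 4. *Fgfr2* went to 0.04 with the block, 0.07 with length and block, and 0.03 with edgeR and 0.07 with batch, both without WT replicate 4. *Spry1* went to 0.02 after thinning and ranged from -0.17 to 0.03 as samples were left out. *Spry4* then ranged from -0.17 to 0.02 and *Dusp6* from -0.06 to 0.15. *Dusp6* was -0.02 with library size alone, -0.0078 with length removed and -0.03 with edgeR without WT replicate 4.

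Same-numbered samples had deviations with correlations of -0.04, 0.36 and 0.09, so the numbers were not taken to pair samples. *Smchd1*-null replicate 1 correlated best with WT replicate 2, not with its own number. The replicate block gave 129 genes under 0.25. On CPM, 4 of 10 members kept their rank of level, and 7 did per kilobase of the longest transcript. At 2.74 to 7.74 M counts, *Fgfr2* rests on 11 to 100 counts a sample.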

Other observations

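The genes outside all lists whose log-CPM over the 7 samples was most like the summed level of the 5 feedback genes, among 9470 with a mean of at least 10 CPM, were *Rab28* (Pearson r = 0.941), *Pias3* (0.939), *Tut1* (0.938), *Nfx1* (0.931) and *1700037H04Rik* (0.930). These are descriptions over 7 samples, chosen as the highest of many. The summed feedback genes were at 773 CPM in WT replicate 4 and at 901 to 1080 CPM in the other 6 samples.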
